A study of Oryza sativa Indica Group with 18 samples.

Results

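The BGLU genes of rice encode beta-glucosidases of glycoside hydrolase family 1, and their RNA was followed through heat in seedlings of 2 indica cultivars. Members were all genes whose symbol or synonym is BGLU with a number, with or without the prefix that gives the chromosome, as in Os5bglu19. The rule found 31 genes, of which 27 had a probe set of their own on the Affymetrix rice array, among 17905 genes with one. Os1bglu2, Os1bglu4, Os5bglu21 and Os6bglu24 had none and are not analysed here. Where a gene had several probe sets, as 9 of the 27 did, the one with the highest mean over the 18 arrays was used.

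Seedlings of Annapurna and IR64, 7 days old and grown hydroponically, gave 3 biological replicates, 1 array each, in 6 groups. Control seedlings of each cultivar stood in growth medium at 28 °C for 3 h, the 37 °C groups were held at 37 °C for 1 h, and the 42 °C groups had 1 h at 37 °C followed by 2 h at 42 °C, in light. The series pairs a heat tolerant with a susceptible cultivar, and the labels do not name the tolerant one. The control and 37 °C groups differ in hours of treatment as well as in temperature, and so do the 37 and 42 °C groups. In both comparisons hours and temperature cannot be told apart.

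Plants store many hormones, defence compounds and cell wall precursors as glucosides, in which a bound glucose keeps the compound soluble and inactive. Beta-glucosidases cut off that glucose and so release the active compound, and others of the family trim short sugar chains from the cell wall or pass the glucose on to another acceptor. In rice, purified members have been shown to differ in the glucosides they accept. Os3bglu6 acts on the glucose ester of abscisic acid, and Os4bglu16 and Os4bglu18 act on monolignol glucosides. Os4bglu12 and Os4bglu13 act on the glucoside of tuberonic acid, a jasmonate, and Os9bglu31 transfers glucose between phenolic and hormone esters.

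Values are linear intensities per probe set as deposited, which have no unit and cannot be ranked between genes. Differences are log2 differences of intensity plus 16 with their standard error, from a limma fit to all arrays, and a gene was called, and is said to have risen or fallen, at a difference of at least 1 log2 (2-fold) with a Benjamini-Hochberg adjusted p under 0.05 over all probe sets. Array medians lay within 0.037 log2, and arrays of a group correlated at 0.997 to 0.999. Non-overlap of 3 arrays with 3 was common. Against control it held for 63.6% and 60.4% of all genes in Annapurna (37 and 42 °C) and 71.9% and 76.3% in IR64. Among the 27 members it held for 20 and 18, and for 22 and 23. From 37 to 42 °C it held for 64.6% and 74.6% of all genes (20 and 20 members). Between the cultivars it held for 65.5%, 70% and 54.8% in control, at 37 and at 42 °C (22 members each). The heat labels were borne out by HSP26.7, a small heat shock protein gene. It was 8.45 log2 above control at 37 °C in Annapurna and 8.56 in IR64, and 6.02 and 8.76 at 42 °C. HSFA2A, a heat stress factor gene, was 7.05 log2 above control at 37 °C in Annapurna and 7.30 in IR64. At 42 °C HSFA2A was -0.62 and 0.38 log2 from control, neither called. A few markers of other organs moved with the steps in whole seedlings: the summed intensity of 15 grain genes was 823 to 4389 in IR64 control and 12080 to 13686 at 42 °C in IR64, and that of 14 root genes was 3439 to 4355 over the controls, 7743 to 8494 at 42 °C in Annapurna and 9969 to 10918 at 42 °C in IR64. In Annapurna the grain sum was 1227 to 1500 in control, 2077 to 2239 at 37 °C and 3305 to 3665 at 42 °C. Most of these markers were low or near their control level: at 42 °C in IR64 the median difference was -0.0081 log2 over the grain genes, of which 3 rose, and -0.014 over the root genes, of which 2 rose and 1 fell, and there 11 of the 15 and 8 of the 14 had a mean under 50. On single arrays, the grain amylase AMY1.1 read 3532 in replicate 3 of the IR64 control and 124 in replicate 3 of the Annapurna control. In such bulk RNA, fewer cells of a type and less RNA per cell cannot be told apart.

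Of the 27 measured members, 14 passed the call in at least 1 of the 12 comparisons and 13 in none; of all genes 28% passed in at least 1, and of the 13771 genes with a mean intensity of at least 50, 33.3% did. In Annapurna 4 rose and 2 fell at 37 °C, 22.2% of members against 10.3% of all genes, of which 5.56% rose and 4.75% fell. At 42 °C in Annapurna 4 rose and 3 fell, 25.9% against 8.9%, of which 3.4% rose and 5.5% fell. In IR64 1 rose and 1 fell at 37 °C, 7.41% against 9.22%, of which 5.15% rose and 4.07% fell. At 42 °C in IR64 5 rose and 2 fell, 25.9% against 11.5%, of which 6.45% rose and 5.1% fell. Members sat mostly above the array's low range, 24 of 27 having a mean of at least 50, and among genes at that level the shares called were 12.4%, 10.8%, 11.4% and 14.2% for the same steps. The median difference of the members was 0.20 and 0.26 log2 in Annapurna and 0.19 and 0.16 log2 in IR64 at 37 and 42 °C, and that of all genes lay within -0.014 to 0.014 log2. These shares describe the members and were not tested against other families.

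**Figure D1:**
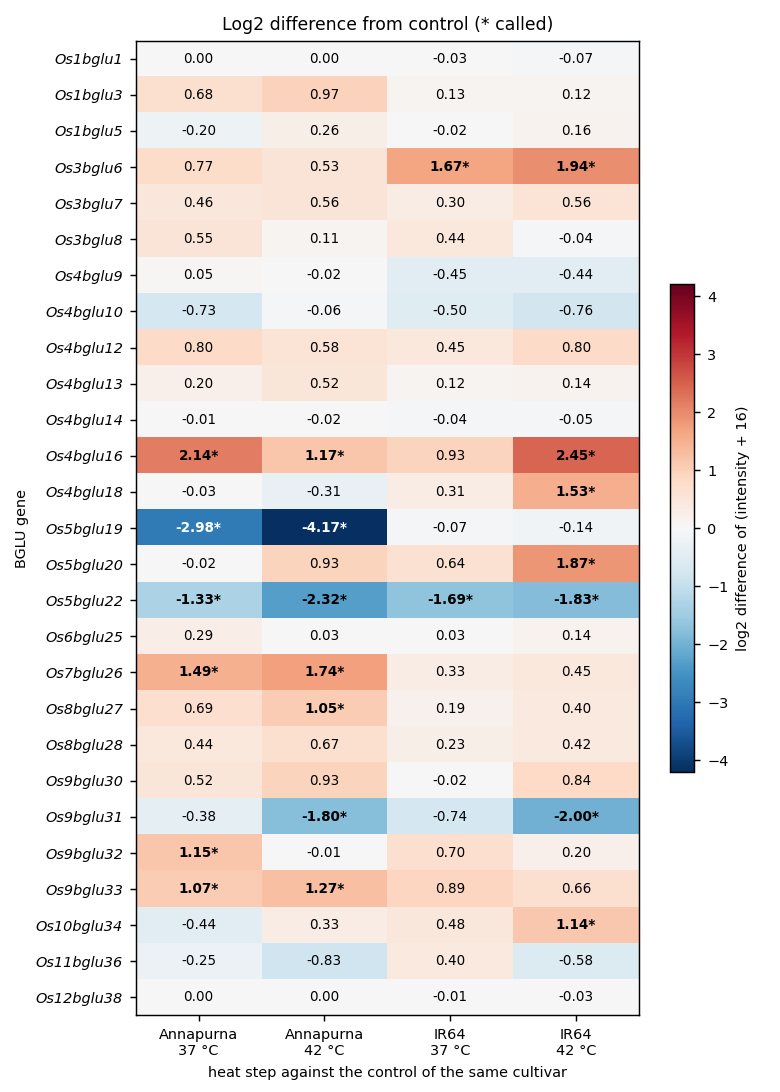
Log2 difference of each heat step from the control of the same cultivar for the 27 measured BGLU genes, each the difference of 2 means of 3 arrays; an asterisk marks a call. Os5bglu19 fell in Annapurna (-2.98 and -4.17), while its IR64 arrays read 8.27 to 13.2 from control on, too low for a fall to be measured, and Os5bglu22 is low in all 4 columns.

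Os3bglu6, the gene whose enzyme releases abscisic acid from its glucose ester, rose in IR64 at both heat steps. Its intensity was 232, 243 and 220.4 on the 3 IR64 control arrays, 776, 758 and 776 at 37 °C and 968, 922 and 920.3 at 42 °C. Every heated IR64 array read above every IR64 control array, and the differences were 1.67 ± 0.07, adjusted p = 1.8e-10 and 1.94 ± 0.07, adjusted p = 3e-11 (limma). In Annapurna it read 284, 245 and 246 in control, 421, 507 and 424 at 37 °C and 358, 395 and 388 at 42 °C, differences of 0.77 ± 0.07 and 0.53 ± 0.07 that did not reach 2-fold. The cultivars were 0.14 ± 0.07 log2 apart in control, Annapurna minus IR64, which was not called, and -1.27 ± 0.07 log2 apart at 42 °C. The 42 °C response was lower in Annapurna by the test of the difference itself (-1.41 ± 0.099, adjusted p = 2.5e-07, limma), and at 37 °C that difference was -0.90 ± 0.099 and not called.

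Among genes of abscisic acid synthesis and breakdown, 3 were measured. ABA1, which makes an early precursor of the hormone, rose at 37 °C in Annapurna (1.37) and IR64 (1.33) and read -0.12 and 0.16 log2 from control at 42 °C. ABA8OX1, a hydroxylase that breaks the hormone down, fell at 42 °C in both cultivars (-2.57 and -2.56) and at 37 °C in IR64 (-2.22). ABA8OX2, of the same enzyme class, rose at 37 °C in Annapurna (1.30) and was 0.82 log2 from control in IR64. At 42 °C ABA8OX2 read -0.88 log2 from control in Annapurna and was called in neither cultivar. Its 42 °C response was called lower in Annapurna than in IR64.

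Of the monolignol glucosidases, Os4bglu16 rose with heat in both cultivars and in a different order of steps, and Os4bglu18 rose at 42 °C in IR64. Os4bglu14, close to them on chromosome 4, stayed at the bottom of the scale. Os4bglu16 read 78.6, 73.1 and 64.8 in Annapurna control, 350.1, 385 and 385 at 37 °C and 158, 175 and 216 at 42 °C. In IR64 it read 130.3, 169 and 141, then 310.5, 285 and 286, then 876, 837 and 895. Annapurna thus peaked at 37 °C and IR64 at 42 °C, with no overlap between the steps of a cultivar.

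The Os4bglu16 differences were 2.14 ± 0.10, adjusted p = 5.7e-10 at 37 °C and 1.17 ± 0.10, adjusted p = 4.4e-07 at 42 °C in Annapurna. In IR64 they were 0.93 ± 0.10, not called, and 2.45 ± 0.10, adjusted p = 1.4e-10 (limma). From 37 to 42 °C it rose by 1.51 ± 0.10 in IR64, while the Annapurna step of -0.98 ± 0.10 was just under 2-fold. The cultivars' responses differed by 1.21 ± 0.14 at 37 °C, -1.28 ± 0.14 at 42 °C and -2.49 ± 0.14 from 37 to 42 °C, all called. With 64 added the Annapurna 42 °C difference (0.85) and the 37 °C difference of responses (0.92) were not called. This probe set carries the suffix by which the maker marks probes that can match several transcripts. A second probe set of the gene, without that suffix, read 1.54 ± 0.15 and 0.96 ± 0.15 in Annapurna and 0.57 ± 0.15 and 1.38 ± 0.15 in IR64, of which the Annapurna 37 °C and the IR64 42 °C values were called. On it the responses differed by 0.97 ± 0.21 at 37 °C and -0.42 ± 0.21, adjusted p = 0.096 at 42 °C, neither called (limma), and by -1.39 ± 0.21 from 37 to 42 °C, called, and the IR64 step from 37 to 42 °C was 0.81 ± 0.15, not called.

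Os4bglu18 lies next to Os4bglu16 on chromosome 4, with no other gene between them. Its intensity was 142, 153 and 141 in IR64 control, 194, 183 and 176 at 37 °C and 428, 461 and 458 at 42 °C. The 42 °C arrays stood apart from the other 6 arrays of the cultivar, 1.53 ± 0.074, adjusted p = 6.5e-10 (limma) from control. In Annapurna it read 203, 186 and 172, then 187, 188 and 174, then 146, 132 and 167, or -0.03 ± 0.074 and -0.31 ± 0.074, neither called. The responses differed by -1.84 ± 0.10 at 42 °C and -1.5 ± 0.10 from 37 to 42 °C, and both differences were called. Os4bglu14, with 2 other genes between it and Os4bglu16, read 6.13 to 8.13 over the 18 arrays, near the array medians of 7.56 to 8.17.

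In the synthesis of monolignols, the lignin precursors, 18 genes were measured. At 37 °C 1 rose and 3 fell in Annapurna, and 1 rose and 2 fell in IR64, against 10.3% and 9.22% of all genes called. At 42 °C 1 rose and 2 fell in Annapurna, and 4 rose and 2 fell in IR64, against 8.9% and 11.5% of all genes called. The list medians at 42 °C were 0.13 and -0.014 log2. The falls in both cultivars at 42 °C were those of 4CL2, a ligase that activates the phenolic acids (-1.76 and -3.07), and CAD3, named for the last reductase of the pathway (-2.18 and -2.36). HCT1, of the shikimate transferase step, rose in IR64 at 37 °C (1.39) and at 42 °C (1.49).

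**Figure D2:**
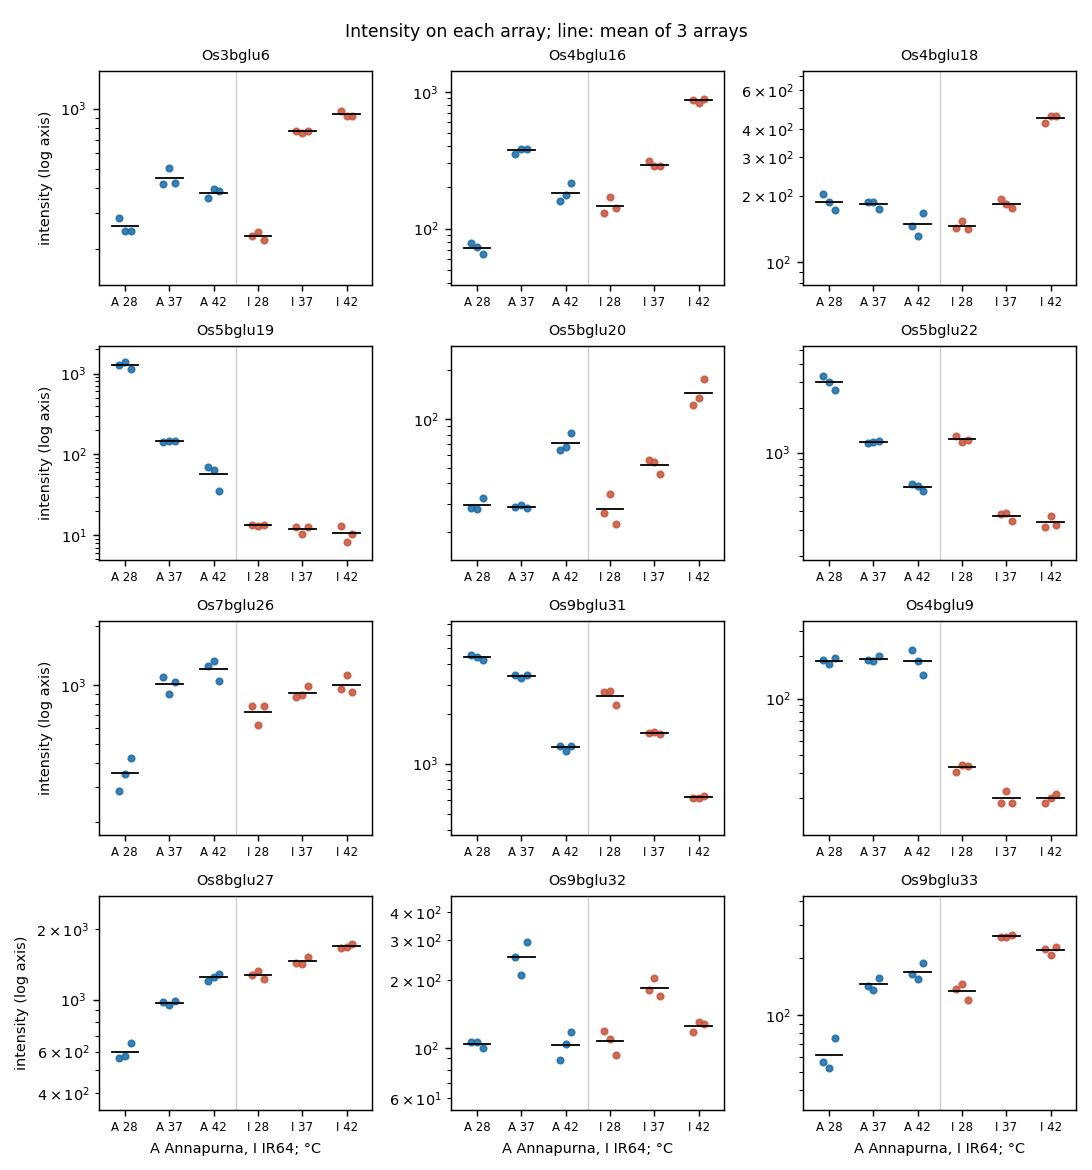
Intensity of 12 BGLU genes on each of the 18 arrays, on a log axis, by cultivar and step; points are arrays and the line is the mean of 3. Os4bglu16 stands highest at 37 °C in Annapurna and at 42 °C in IR64, and Os5bglu19 reads 8.27 to 13.2 on every IR64 array.

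The genes for the jasmonate glucosidases were called in no heat step. Os4bglu12, which in rice accepts short cell wall sugars as well as the tuberonic acid glucoside, read 1369, 1046 and 1062 in Annapurna control, 1905, 2045 and 2082 at 37 °C and 1665, 1582 and 1945 at 42 °C. In IR64 it read 2693, 2249 and 1745, then 2976, 3136 and 2934, then 3732, 3729.6 and 4061. All heated groups stood above their control, by 0.80 ± 0.13 and 0.58 ± 0.13 in Annapurna and 0.45 ± 0.13 and 0.80 ± 0.13 in IR64, none of them called, and at 42 °C Annapurna minus IR64 was -1.15 ± 0.13, adjusted p = 1.4e-05 (limma). A second probe set of Os4bglu12, at 11.5 to 76.0 over the arrays, gave the opposite sign against control, -0.28 and -0.40 in Annapurna and -0.28 and -0.67 in IR64, none called, so no direction in heat is given for the gene. For the cultivars at 42 °C it gave -0.72 ± 0.13, which was not called. Os4bglu13, with 1 other gene between it and Os4bglu12, was called in no comparison and differed from control by 0.20 and 0.52 in Annapurna and 0.12 and 0.14 in IR64.

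Of 18 measured genes listed by name under jasmonate synthesis and modification, 2 rose and 3 fell at 37 °C and 4 fell at 42 °C in Annapurna. For the same steps 10.3% and 8.9% of all genes were called. In IR64 1 of the 18 rose and 5 fell at 37 °C and 4 fell at 42 °C, against 9.22% and 11.5% of all genes called. LOX8, named for the lipoxygenase step that starts the pathway, fell at 42 °C in Annapurna (-1.44) and in IR64 (-1.93). AOS3, named for allene oxide synthase, rose at 37 °C (1.78 and 2.17). A gene named AOS fell at 42 °C in Annapurna (-2.31), and another of that name fell at 42 °C in IR64 (-1.95). OPR10 (-2.61 and -2.83) and OPR5 (-1.80 and -2.19) of the same list fell at 37 °C in both cultivars. The list takes OPR genes by name alone, which does not place each of them in jasmonate synthesis.

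Os3bglu7 and Os3bglu8, neighbours on chromosome 3 with no gene between them, encode relatives that release glucose from short cell wall chains. Os3bglu7 read 7407, 6993 and 6998 in Annapurna control and 7173, 7686 and 7682 in IR64 control. Heat left it 0.46 and 0.56 log2 from control in Annapurna and 0.30 and 0.56 in IR64, all under 2-fold. Its heated and control arrays did not overlap, as held for 60.4% to 76.3% of all genes by step. Os3bglu8 differed by 0.55 and 0.44 at 37 °C and by 0.11 and -0.04 at 42 °C, and its 42 °C arrays overlapped with control in both cultivars.

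Os7bglu26, whose enzyme prefers mannosides to glucosides, rose in Annapurna at both steps. It read 286, 349 and 422 in control, 1098, 899 and 1034 at 37 °C and 1253, 1324 and 1042 at 42 °C, against 781, 619.6 and 779 in control, 870.3, 882 and 984 at 37 °C and 951, 1116 and 917 at 42 °C in IR64. The Annapurna control arrays were the lowest, and at both heat steps the cultivars overlapped. Differences from control were 1.49 ± 0.14, adjusted p = 7.3e-07 and 1.74 ± 0.14, adjusted p = 1.6e-07 in Annapurna (limma) and 0.33 ± 0.14 and 0.45 ± 0.14 in IR64. In control Annapurna minus IR64 was -1.02 ± 0.14 log2, a call that was lost on leaving out replicate 1 of the Annapurna control (-0.88) or replicate 1 (-0.96) or 3 (-0.97) of the IR64 control, or with 64 added (-0.93). The responses differed by 1.16 ± 0.19 at 37 °C and 1.29 ± 0.19 at 42 °C, both called.

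Among 13 glucanase genes of the cell wall, 1 rose and 2 fell at 37 °C and none was called by limma at 42 °C in Annapurna, where 11 of the 13 had an unadjusted p under 0.05. For the same steps 10.3% and 8.9% of all genes were called. In IR64 1 of the 13 rose at 37 °C, and 2 rose and 1 fell at 42 °C, against 9.22% and 11.5% of all genes called. GLU1, an endoglucanase, rose at 37 °C in both (2.04 and 1.24).

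Os5bglu19, Os5bglu20, Os5bglu21 and Os5bglu22 lie close together on chromosome 5, and of these Os5bglu19 fell in Annapurna, Os5bglu22 fell in both cultivars and Os5bglu20 rose in IR64. Os5bglu19 fell in Annapurna from 1287, 1380.2 and 1138 in control to 143, 147 and 148 at 37 °C and 70.1, 64.6 and 35.5 at 42 °C. In IR64 it read 13.2, 13.1 and 13.2 in control, 12.5, 10.2 and 12.5 at 37 °C and 12.9, 8.27 and 10.4 at 42 °C, close to the array medians at every step. No Annapurna array overlapped with an IR64 array.

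The falls of Os5bglu19 in Annapurna were -2.98 ± 0.15, adjusted p = 8.2e-10 and -4.17 ± 0.15, adjusted p = 3.2e-11 (limma). From 37 to 42 °C it fell by a further 1.19 ± 0.15, which without replicate 3 of the 42 °C group was 0.96 log2 and no longer called. Annapurna was above IR64 by 5.46 ± 0.15 log2 in control, 2.55 ± 0.15 at 37 °C and 1.42 ± 0.15 at 42 °C. Since the IR64 values are low, the size depends on the amount added before the logarithm: the control difference was 6.48 with 1 added and 4.11 with 64 added. With 64 added the 42 °C difference between the cultivars was 0.68, the further fall in Annapurna was -0.81 and the difference of responses from 37 to 42 °C was -0.79, and none of these was then called. The differences between cultivars in response were -2.91 ± 0.21 and -4.03 ± 0.21, with -1.12 ± 0.21 from 37 to 42 °C log2. A fall in IR64 could not have been measured at these levels. Whether the IR64 transcript is rare or carries changes under the probes cannot be told apart on these arrays, and the same holds for every comparison between cultivars.

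Os5bglu22 fell in both cultivars. It read 3318, 2990.3 and 2671 in Annapurna control, 1152, 1170.5 and 1200.3 at 37 °C and 613, 594 and 550.4 at 42 °C, and 1301, 1177 and 1222 in control, 385, 390.1 and 341 at 37 °C and 312, 372 and 321 at 42 °C in IR64. Each heated group lay below its control without overlap, by -1.33 ± 0.081, adjusted p = 7.6e-09 and -2.32 ± 0.081, adjusted p = 2.9e-11 in Annapurna and -1.69 ± 0.081, adjusted p = 7.4e-10 and -1.83 ± 0.081, adjusted p = 2.4e-10 in IR64 (limma). Annapurna was above IR64 by 1.26 ± 0.081 in control and 1.62 ± 0.081 at 37 °C, and no difference of responses was called.

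Os5bglu20, with 1 other gene between it and Os5bglu19, was low in control and rose at 42 °C in IR64. It read 26.2, 34.3 and 22.6 in IR64 control, 56.1, 54.0 and 45.7 at 37 °C and 122, 134 and 177 at 42 °C. The rise was 1.87 ± 0.13, adjusted p = 2.5e-08 (limma), of which 1.23 ± 0.13 came after the 37 °C step (0.84 and not called with 64 added). In Annapurna it read 28.4, 27.7 and 32.6, then 28.5, 29.4 and 28.3, then 64.8, 67.2 and 81.6, and the 42 °C difference of 0.93 ± 0.13 missed the call and became 1.24 with 1 added.

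Os9bglu31, the vacuolar transglucosidase, fell at 42 °C in both cultivars. It read 4552, 4405 and 4231 in Annapurna control, 3412, 3293 and 3444 at 37 °C and 1282, 1194 and 1287 at 42 °C, and 2715, 2759 and 2253 in control, 1529, 1557 and 1513 at 37 °C and 621, 625 and 639.7 at 42 °C in IR64. Each step lay below the one before without overlap, -0.38 ± 0.06 and -0.74 ± 0.06 at 37 °C and -1.80 ± 0.06, adjusted p = 2e-11 and -2.00 ± 0.06, adjusted p = 4.6e-12 at 42 °C (limma, Annapurna then IR64). Most of this came after the first hour, -1.42 ± 0.06 and -1.27 ± 0.06 log2 from 37 to 42 °C. Annapurna was above IR64 at every step, by 0.77, 1.13 and 0.98, of which the 37 °C value was called.

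Its direct neighbours on chromosome 9, Os9bglu32 and Os9bglu33, rose in Annapurna. Os9bglu32 read 106, 106 and 100.01 in Annapurna control, 253, 211 and 294 at 37 °C and 88.8, 104 and 117 at 42 °C, so that it rose by 1.15 ± 0.12 and then fell by 1.16 ± 0.12. In IR64 it read 119, 110.0 and 93.1 in control, 181, 203 and 169 at 37 °C and 118, 130.5 and 128 at 42 °C, a difference of 0.70 ± 0.12 at 37 °C that was not called, and the 37 °C responses were not shown to differ (0.45 ± 0.16). A second probe set of Os9bglu32 gave 0.27 ± 0.019 at 37 °C and -0.27 ± 0.019 from 37 to 42 °C in Annapurna, the same signs without a call. It read 4.54 to 9.21 over the arrays, near or below the array medians, too low for these signs to weigh. At 37 °C in IR64 it gave -0.0024. With 64 added the used probe set gave 0.91 and -0.91, not called. Os9bglu33 rose in Annapurna, from 56.4, 52.5 and 75.1 in control to 143, 136 and 157 at 37 °C and 164, 155 and 188 at 42 °C, by 1.07 ± 0.10 and 1.27 ± 0.10. In IR64 it read 137, 146 and 119 in control, 259, 257 and 266 at 37 °C and 224, 208 and 229 at 42 °C, above control by 0.89 ± 0.10 and 0.66 ± 0.10 without a call. The Annapurna 37 °C call of Os9bglu33 was lost without replicate 2 of the control (0.99), and with 64 added both its Annapurna differences were under 2-fold (0.74 and 0.90). The differences of response for Os9bglu33 were 0.18 ± 0.14 and 0.61 ± 0.14, neither called.

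Os8bglu27, Os10bglu34 and Os4bglu9 complete the members with a call, and no substrate is named for them here. Os8bglu27 read 563, 572 and 649.9 in Annapurna control, 973, 949 and 991 at 37 °C and 1202, 1252 and 1289 at 42 °C, a rise of 1.05 ± 0.049 (0.995 and not called with 64 added). In IR64 it read 1279.7, 1322 and 1230.0 in control, 1439, 1415 and 1517 at 37 °C and 1666, 1677 and 1736 at 42 °C. In control Annapurna minus IR64 was -1.08 ± 0.049 log2, a call. No IR64 heat step and no difference of responses was called for Os8bglu27. Os8bglu28, directly beside Os8bglu27, was called nowhere, with 0.67 and 0.42 at 42 °C.

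Os10bglu34 rose at 42 °C in IR64, from 139, 149 and 80.9 to 276, 310.1 and 263, by 1.14 ± 0.21. At 37 °C in IR64 it read 184.3, 161.5 and 175.2. In Annapurna it read 86.2, 68.6 and 87.2 at 37 °C and 149.7, 143.9 and 149.3 at 42 °C, neither step called. Its difference of responses was called at no step. Without replicate 3 of the Annapurna control it was called at 37 °C (-1.20) and at 42 °C (-1.09). Control replicate 3 was low in both cultivars, the Annapurna values being 152, 132 and 73.1, and without replicate 3 of the IR64 control the IR64 difference was 0.90 and no longer called, as with 64 added (0.91). Those are also the control arrays with high AMY1.1.

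Os4bglu9 differed between the cultivars and was called in no heat step. It read 188, 174 and 192 in Annapurna control, 188, 186 and 200.4 at 37 °C and 221, 185 and 147 at 42 °C, and 30.1, 34.2 and 33.6 in control, 18.4, 22.4 and 18.4 at 37 °C and 18.2, 20.0 and 21.1 at 42 °C in IR64. Every Annapurna array was above every IR64 array, by 2.05 ± 0.11, adjusted p = 2.6e-09, 2.54 ± 0.11, adjusted p = 2.3e-10 and 2.47 ± 0.11, adjusted p = 2.7e-10 (limma). Its heated arrays overlapped with control in Annapurna (0.05 and -0.02), and in IR64 they were -0.45 and -0.44 log2 from it.

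Of the 13 members called nowhere, 3 were under 50 in all groups: Os1bglu1, Os4bglu14 and Os12bglu38. Os4bglu10 read 944 ± 59.3 (SD, n = 3) in Annapurna control and 1141 ± 32.2 in IR64 control, and differed from control by -0.73 and -0.06 in Annapurna and -0.50 and -0.76 in IR64. The range over the group means of Os9bglu30 was 1.74 log2, from 352 in Annapurna control to 1212 at 42 °C in IR64, with 0.93 and 0.84 at 42 °C. Os8bglu28 spanned 1.19 log2, Os4bglu13 1.00, Os1bglu3 0.97, Os6bglu25 0.79 and Os1bglu5 0.46 over the 6 group means. Os1bglu1 (9.25 to 11.1 over the arrays) and Os12bglu38 (5.58 to 6.13) were as low as Os4bglu14. The probe sets of Os1bglu1, Os1bglu3, Os9bglu30 and Os9bglu32, like that of Os4bglu16, are of the kind that can match several transcripts.

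For Os11bglu36, the probe sets disagreed. Its synonym is OsSFR2, after the Arabidopsis enzyme that remodels galactolipids of the chloroplast envelope in freezing. The probe set used here read 370.2, 339 and 324 in Annapurna control, 291, 284 and 287 at 37 °C and 192, 175 and 192 at 42 °C, and 149.5, 188 and 167 in control, 249, 222 and 209 at 37 °C and 111, 102 and 107 at 42 °C in IR64, with no call against control. A second probe set, of the kind that can match several transcripts, read 16.0, 20.7 and 20.9 in Annapurna control, 345, 321 and 360.5 at 37 °C and 153, 151 and 134 at 42 °C. In IR64 it read 14.2, 14.1 and 14.1 in control, 216, 211 and 222 at 37 °C and 133, 140.0 and 124 at 42 °C.

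That second probe set of Os11bglu36 was higher than control by 3.35 ± 0.068, adjusted p = 7.2e-14 and 2.20 ± 0.068, adjusted p = 8.9e-12 in Annapurna and 2.95 ± 0.068, adjusted p = 3.1e-13 and 2.30 ± 0.068, adjusted p = 4e-12 in IR64 (limma), where the one used here gave -0.25, -0.83, 0.40 and -0.58. Another was at 4.21 to 17.9 in the group means. No direction is therefore given for the gene. Os1bglu5 also had a second probe set with a call, 1.45 ± 0.11 at 42 °C in IR64 against 0.16 ± 0.056 on the one used. For Os4bglu10 a second probe set fell at 37 °C in Annapurna (-1.75 ± 0.16) and at both steps in IR64 (-1.09 and -1.12), in the direction of the one used. Another probe set of Os4bglu10 did not go down, at 0.48 ± 0.11 and 0.54 ± 0.11 in Annapurna and 0.01 and 0.24 in IR64, none called. For Os9bglu30 a second one rose at 42 °C in Annapurna (1.17 ± 0.11).

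**Figure D3:**
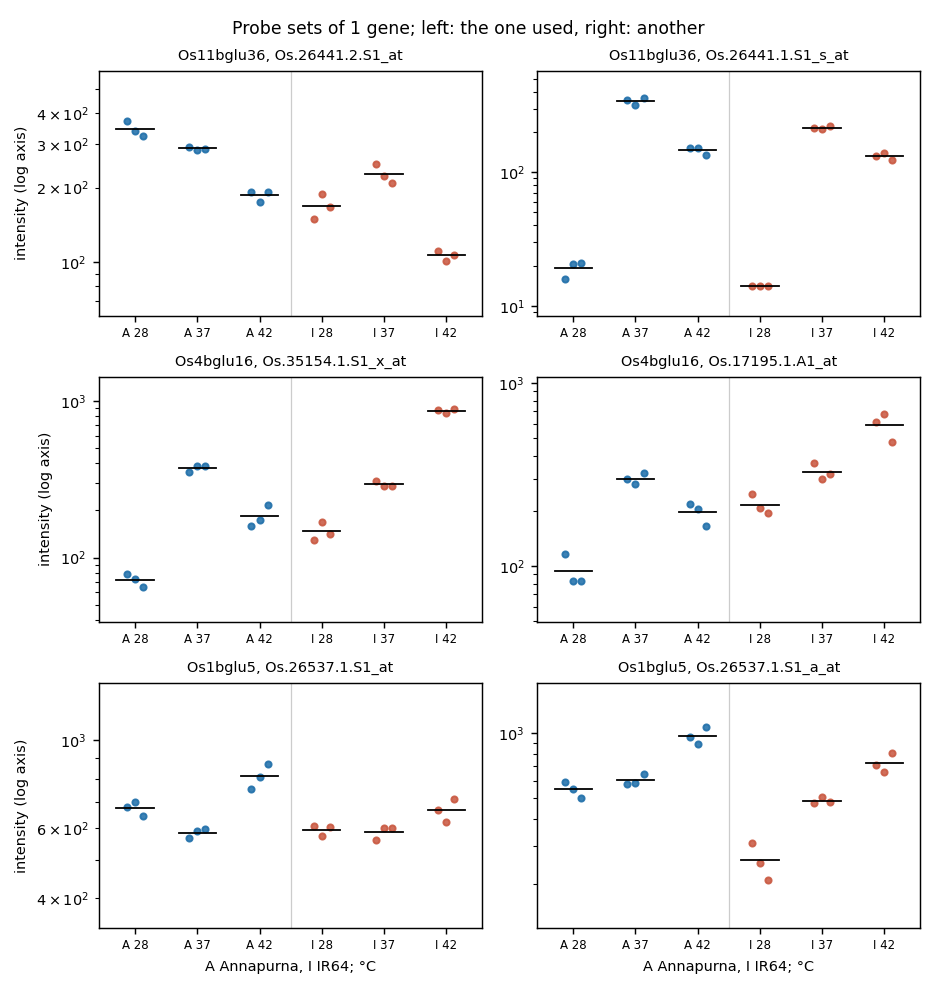
Intensity on each array of the probe set used (left) and another probe set (right) of Os11bglu36, Os4bglu16 and Os1bglu5, on a log axis. For Os11bglu36 the right panel climbs from group means of 19.2 and 14.1 in control to 342 and 216 at 37 °C, while the left panel stays within 107 to 344.

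Between the heat steps, 3 members fell from 37 to 42 °C in Annapurna and none rose (11.1% against 9.14% of all genes, of which 6.39% fell and 2.75% rose), namely Os5bglu19, Os9bglu31 and Os9bglu32. In IR64 3 rose and 1 fell (14.8% against 6.45% of all genes, of which 2.52% rose and 3.93% fell), namely Os4bglu16, Os4bglu18 and Os5bglu20 upward and Os9bglu31 downward. Sign agreed between the cultivars in 21 of 27 members at 37 °C and 24 of 27 at 42 °C, against 79.8% and 72.7% of all genes, and no member was called in opposite directions, against 0.0168% and 0.067% of all genes. At 37 °C 1 member was called the same way in both cultivars, against 6.09% of all genes. At 42 °C 3 were, against 4.85%, Os4bglu16 upward and Os5bglu22 and Os9bglu31 downward. The IR64 42 °C arrays are also those with the highest grain and root sums, and the part of these organs in the rises of Os3bglu6, Os4bglu16, Os4bglu18, Os5bglu20 and Os10bglu34 was not tested. Both sums were above control at 42 °C in Annapurna too. Their part in its rises of Os4bglu16, Os7bglu26, Os8bglu27 and Os9bglu33 was not tested either.

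Between the cultivars, Annapurna was above IR64 in 3 members and below in 2 without heat (18.5% against 6.17% of all genes, of which 3.92% were above and 2.25% below). Leaving out 1 array moved that count from 5 to between 4 and 8, 8 without replicate 3 of the Annapurna control. It was above in 4 and below in none at 37 °C (14.8% against 5.45%, of which 3.3% were above and 2.15% below), and above in 2 and below in 4 at 42 °C (22.2% against 5.6%, of which 2.51% were above and 3.08% below). Os4bglu9 and Os5bglu19 were above at all 3 steps, Os5bglu19 at 42 °C not with 64 added. The 4 below at 42 °C were Os3bglu6, Os4bglu12, Os4bglu16 and Os4bglu18.

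By the test of the difference of responses, 2 members were higher in Annapurna and 1 lower at 37 °C (11.1% against 2.82% of all genes, of which 1.52% were higher and 1.3% lower). At 42 °C 1 was higher and 4 were lower (18.5% against 5.54%, of which 1.88% were higher and 3.66% lower). From 37 to 42 °C 3 were lower and none was higher (11.1% against 5.13%, of which 3.29% were lower and 1.84% higher). They were 5 genes in all: Os3bglu6, Os4bglu16, Os4bglu18, Os5bglu19 and Os7bglu26. Of the 5 at 42 °C, Os7bglu26 had the higher response in Annapurna and the other 4 the lower. These counts include Os5bglu19, whose IR64 arrays read 8.27 to 13.2, too low for a fall to be measured. They also include Os4bglu16, whose second probe set gave 0.97 at 37 °C and -0.42 at 42 °C, neither called. From 37 to 42 °C that probe set gave -1.39, called.

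**Figure D4:**
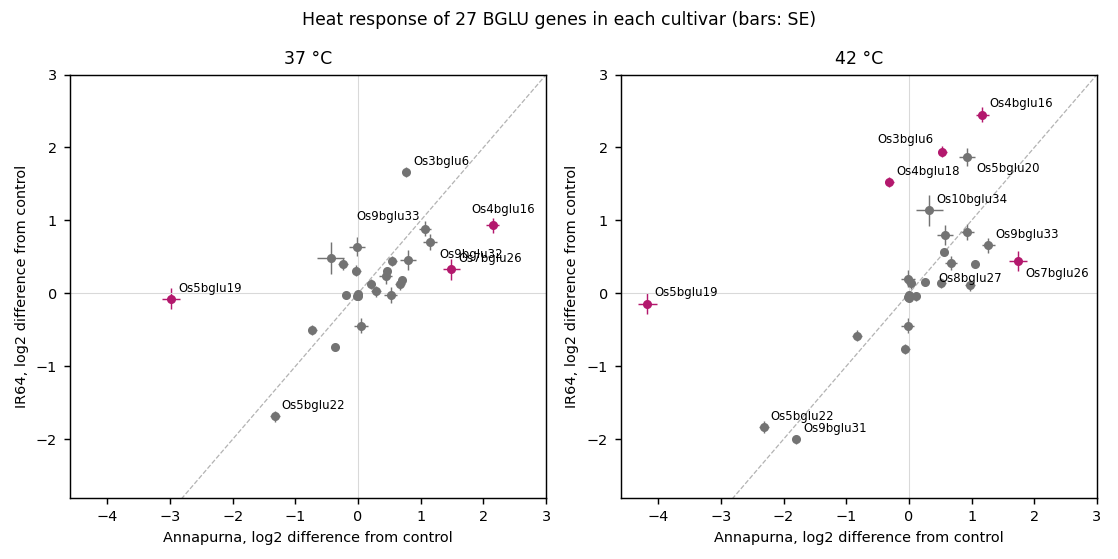
Log2 difference from control in Annapurna (horizontal) against IR64 (vertical) at 37 and 42 °C for the 27 members, with bars of 1 standard error; magenta marks members whose difference of responses was called and the dashed line marks equal responses. At 42 °C Os4bglu16 (1.17 and 2.45) and Os4bglu18 (-0.31 and 1.53) lie above the line and Os7bglu26 (1.74 and 0.45) below it.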

How the data were processed

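Per the labels' protocols, 500 ng of total RNA from each sample was labelled and hybridized to an Affymetrix rice array. The authors deposited a linear intensity for each probe set and array. Per the submitters' processing notes GCOS was used, and the summarization and scaling are not given in the sources used here. No depth applies to arrays, and 3 arrays a group limit the precision.

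Of 57381 probe sets, 123 controls were left out and 57258 were tested. Log2 of intensity plus 16 was fitted with limma 3.58.1 in R 4.3.3 (6 group means, 18 arrays, 12 contrasts, 12 residual degrees of freedom, eBayes with trend, two-sided, Benjamini-Hochberg over all probe sets of a contrast). No further normalization was applied. The fit was tested on simulated data. For 3 arrays against 3 the smallest p of an exact permutation test is 0.1, so limma p values are given.

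The array annotation paired 22436 probe sets with 1 gene, 95 with several and 34727 with none, and the 17905 genes were named by gene number from the RefSeq gene table (assembly ASM3414082v1), used for names and neighbours. BGLU1 is a name of both Os1bglu1 and Os3bglu7, so the longer names are used. Python 3.11.15 with pandas 2.3.3, numpy 2.4.6 and matplotlib 3.10.9 made the tables and figures.

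The members and the lists were chosen with earlier results of these data known. Every member with a call is given array by array, with the range of the others, the 3 uncalled members of the highest level and those with an unadjusted p under 0.05 in most comparisons. From the lists (abscisic acid, jasmonate, monolignol, glucanase, and grain, root and leaf markers) examples were taken from the called genes with the largest differences, and no list was tested. The glucosyltransferase list held 1 measured gene, named SGT1 like a co-chaperone, and is not described. The leaf marker sum lay between 64652 and 88093 over the arrays. Alternatives were 1 or 64 added, quantile normalization, no variance trend, no fold threshold, a filter at the median level, the replicate number as a block, each array left out in turn and, chosen after seeing the data, replicate 3 of both controls left out together.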

Additional observations from a re-analysis of the deposited data

Results flagged for a closer look

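These results stand out because the cultivars' heat responses differed by a test of the difference itself (limma, Annapurna response minus IR64 response, log2). At 37 °C the difference was 1.21 for Os4bglu16, -2.91 for Os5bglu19 and 1.16 for Os7bglu26. At 42 °C it was -1.41 for Os3bglu6, -1.28 for Os4bglu16, -1.84 for Os4bglu18, -4.03 for Os5bglu19 and 1.29 for Os7bglu26. From 37 to 42 °C it was -2.49 for Os4bglu16, -1.5 for Os4bglu18 and -1.12 for Os5bglu19. The IR64 arrays of Os5bglu19 read 8.27 to 13.2 over all groups, too low for a fall to be measured, so its values do not show that the cultivars respond differently.

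Os4bglu16 was the gene whose difference of responses had a positive sign at 37 °C and a negative one at 42 °C among these 5. The value of Os5bglu19 from 37 to 42 °C was -0.89 without replicate 3 of the Annapurna 42 °C group and -0.79 with 64 added, and was then not called. On a second probe set of Os4bglu16 the differences at 37 and 42 °C were 0.97 and -0.42, neither called, and on the used one the 37 °C difference was 0.92 and not called with 64 added.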

How the results depend on the processing

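The members made 55 called differences over the 12 comparisons, and all 55 kept their sign under every alternative run, other probe sets included. The other probe set of Os9bglu32 was at the bottom of the scale, so its signs say little. With quantile normalization, no variance trend, 1 added, the filter at the median level (25 of 27 members) or the replicate block none of the 55 was lost, and with 64 added 13 were, each given beside its gene above. With 1 added the members called rose from 3 to 6 between the steps in Annapurna and from 5 to 8 between the cultivars in control. With 64 added 4 members were called at 42 °C in Annapurna and 1 between its steps. With no fold threshold 20, 18 and 18 members were called in Annapurna (37 °C, 42 °C, between steps) and 17, 21 and 17 in IR64, 20, 19 and 19 between the cultivars (control, 37 °C, 42 °C), and 12, 17 and 17 for the differences of responses; the shares of all genes were 55.5%, 53.1%, 51.7%, 61.8%, 71.5%, 64.4%, 63.6%, 53.4%, 39.9%, 21.4%, 55.9% and 45.2% in the same order. Leaving out replicate 3 of both controls gave 9 members between the cultivars in control. Leaving out 1 array gave 4 to 8 members there, 8 without replicate 3 of the Annapurna control, and 3 to 5 between the Annapurna steps, 5 without replicate 1 of its 42 °C group. The other ranges were 5 to 6 and 7 to 9 in Annapurna, 2 to 3, 6 to 7 and 4 to 5 in IR64, 4 to 5 and 6 to 7 between the heated cultivars, and 3 to 4, 5 to 6 and 3 to 3 for the differences of responses. Of the 55, 5 lost the call on leaving out 1 array, with values given beside them above. Another probe set existed for 11 of the 55, of which 4 kept the call and 7 did not, in Os4bglu12, Os4bglu16 and Os9bglu32. Another 15 differences were called on the other probe set alone, 4 with the opposite sign: Os11bglu36 in Annapurna at 37 °C (3.35) and 42 °C (2.20) and in IR64 at 42 °C (2.30), and Os4bglu10 between the cultivars in control (1.21). Deviations of same-numbered arrays correlated little (45 pairs, r from -0.19 to 0.17, mean 0.0083), with 7 pairs over 0.1. This cannot settle whether the numbers pair samples. The replicate block gave the same counts in each comparison, such as 6 and 7 at 37 and 42 °C in Annapurna. The cause of the other changes was not tested. Probe sets near the array medians bound what a fall can show.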
